A study of Homo sapiens with 8 samples.

Results

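A set of 32 human genes that make, take up, store and export cholesterol was followed through 4 thyroid cancer cell lines in which NR1D1 was lowered or raised. The genes were listed by symbol: 18 enzymes of synthesis, 4 genes of an SREBP group, 5 genes of uptake, lysosomal release and storage, and 5 genes of efflux and the LXR receptors. The SREBP group holds SREBF2, SCAP and INSIG1 of the sterol sensor and STARD4, a cytosolic sterol carrier. All 32 were found among the 58884 genes of the tables, and all 32 passed the filter of a mean of at least 1 TPM (a transcript level scaled for gene length and library depth) that 17595 genes passed. The rule that lists them uses no measured value, but the members were chosen with earlier results of these data known.

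REV-ERB alpha, the product of NR1D1, is a nuclear receptor that represses transcription in the circadian clock. The groups were 8505C cells transfected with an siRNA against NR1D1, 8505C cells with a control siRNA, CAL-62 cells with the NR1D1 siRNA, CAL-62 cells with the control siRNA, TPC-1 cells with an NR1D1 vector, TPC-1 cells with an empty vector, FTC-133 cells with the NR1D1 vector and FTC-133 cells with the empty vector. Each of these 8 groups had 1 library, and the labels give every line the genotype WT. 8505C and CAL-62 were derived from anaplastic thyroid carcinomas, TPC-1 from a papillary and FTC-133 from a follicular carcinoma. The sources used here do not give the siRNA sequences, the promoter of the vector, the part of NR1D1 that it carries or the hours between transfection and harvest.

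With 1 library per group there was no replicate within a line. A line's ratio is therefore a description of a pair of libraries. In the tests below each line is 1 observation, but the p-values do not rest on the spread of an agent's 2 lines alone. The spread was pooled over the 4 lines, with 2 residual degrees of freedom. It was then drawn by limma toward that of genes of similar expression. Standard errors (±) below come from the same spread. Fewer cells of a type and less RNA per cell cannot be told apart in these bulk samples. Estimated depth ranged from 12855586 to 23184775 reads per library. NR1D1 itself was at 11.2 TPM after its siRNA and 18.2 TPM after control siRNA in 8505C, and at 10.1 TPM after NR1D1 siRNA and 22.0 TPM after control siRNA in CAL-62. It stood at 209 TPM with the NR1D1 vector and 190 TPM with the empty vector in TPC-1, and at 137 TPM with NR1D1 vector and 105 TPM with empty vector in FTC-133, so the vector lines differed by little in NR1D1 reads. The thyroid markers TG and SLC5A5 were under 1 TPM in all 8 libraries. PAX8 was at 53.7 TPM or more in every library of CAL-62, TPC-1 and FTC-133 but at 0.501 TPM with NR1D1 siRNA and 0.503 TPM with control siRNA in 8505C, where NKX2-1 was at 100 TPM with NR1D1 siRNA and 63.4 TPM with control siRNA. Leukocyte markers summed to at most 0.326 TPM in any library.

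Cells build cholesterol from acetyl-CoA through mevalonate, isoprenoid units, squalene and lanosterol. When membranes of the endoplasmic reticulum hold little sterol, the escort protein SCAP carries SREBP-2 to the Golgi, where it is cut, and its freed part switches on the synthesis genes from sterol regulatory elements, often beside CCAAT boxes bound by NF-Y. When sterol is plentiful, INSIG1 holds SCAP back, and oxysterols activate the LXR receptors, which switch on the exporters ABCA1 and ABCG1 and the ubiquitin ligase MYLIP.

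The promoters of 4 members are printed because they carry the elements named above in front of genes whose values are followed below: MSMO1, MVK and SREBF2 hold the letters of a sterol regulatory element, and DHCR7, the synthesis enzyme with the highest siRNA change, holds CCAAT boxes without those letters. The windows run from 250 bases before to 50 bases after the RefSeq start site on GRCh38.p14, on the strand of the gene. Capitals mark TCACNCCA in MSMO1, MVK and SREBF2 and the CCAAT boxes, in either orientation, in DHCR7. The windows lie at chr4:165327419-165327718 on the plus strand for MSMO1, at chr12:109573544-109573843 on the plus strand for MVK, at chr22:41832855-41833154 on the plus strand for SREBF2 and at chr11:71448344-71448643 on the minus strand for DHCR7.
MSMO1: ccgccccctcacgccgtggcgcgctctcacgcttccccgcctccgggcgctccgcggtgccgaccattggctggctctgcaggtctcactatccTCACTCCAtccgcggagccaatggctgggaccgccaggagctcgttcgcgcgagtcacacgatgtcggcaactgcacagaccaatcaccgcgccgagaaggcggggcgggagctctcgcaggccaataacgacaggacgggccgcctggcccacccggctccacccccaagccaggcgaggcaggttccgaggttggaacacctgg
MVK: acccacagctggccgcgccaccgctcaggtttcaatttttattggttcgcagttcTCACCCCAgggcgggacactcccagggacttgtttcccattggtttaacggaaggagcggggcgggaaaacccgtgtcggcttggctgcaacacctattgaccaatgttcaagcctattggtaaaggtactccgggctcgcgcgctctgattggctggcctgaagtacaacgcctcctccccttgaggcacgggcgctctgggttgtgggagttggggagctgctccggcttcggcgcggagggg
SREBF2: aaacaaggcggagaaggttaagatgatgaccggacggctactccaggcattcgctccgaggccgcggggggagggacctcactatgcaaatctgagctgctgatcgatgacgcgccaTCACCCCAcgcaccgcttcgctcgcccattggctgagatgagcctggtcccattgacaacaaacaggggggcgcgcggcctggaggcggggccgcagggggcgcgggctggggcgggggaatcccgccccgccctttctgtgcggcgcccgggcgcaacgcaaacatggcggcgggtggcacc
DHCR7: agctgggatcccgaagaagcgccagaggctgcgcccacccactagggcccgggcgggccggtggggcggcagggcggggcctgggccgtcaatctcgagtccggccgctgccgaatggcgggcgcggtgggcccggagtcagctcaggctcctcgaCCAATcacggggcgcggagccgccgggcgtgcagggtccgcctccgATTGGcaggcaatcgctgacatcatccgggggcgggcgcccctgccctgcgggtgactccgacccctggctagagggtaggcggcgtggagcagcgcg

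RefSeq windows were at hand for 27 of the 32 members, 15 of them synthesis enzymes, and a gene with several start sites was counted when any of its windows held the letters. Both strands were searched for exact letters. TCACNCCA, a sterol regulatory element with 1 free base, lay in 3 of 27 members, against 4.8% of all genes with a window. The left end of the match was at position -156 from the start site in MSMO1, -195 in MVK and -133 in SREBF2. ATTGG, the CCAAT box read on the other strand, lay in 21 of 27 members and in 13 of the 15 synthesis enzymes, against 39.7% of all genes, and in DHCR7 its matches lay at -94 and -48. The E-box CACGTG lay in 5 of 27 members (ABCA1, INSIG1, LSS, SC5D and SCAP), against 8.77% of all genes. AGGTCA, the core letters that nuclear receptors such as REV-ERB alpha and LXR share, lay in DHCR7 and NR1H3 only, 2 of 27 members against 16.5% of all genes. In DHCR7 it lay in the window of another start site, not in the one printed. The DR4 element of LXR, which repeats AGGTCA after a gap of 4 bases, lay in 0 of 27 members, against 0.0256% of all genes. These are matches of letters in short windows and were not tested as sites.

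After NR1D1 siRNA the synthesis enzymes were mostly higher than after control siRNA. In 8505C, 17 of 18 were above their control, against 52.9% of all genes measured in that line. Their levels summed to 871 TPM after NR1D1 siRNA and 438 TPM after control siRNA. In CAL-62, 15 of 18 were above control, against 32.6% of all genes measured there. The sums were 600 TPM after NR1D1 siRNA and 398 TPM after control siRNA. The median log2 ratio of TPM + 1 over the 18 enzymes was 0.99 in 8505C, beside 0.05 for the median gene, while in CAL-62 it was 0.53, beside -0.28 for the median gene. The vector lines had little of this. Sums were 1166 TPM with the NR1D1 vector and 1085 TPM with the empty vector in TPC-1, and 2478 TPM with NR1D1 vector and 2617 TPM with empty vector in FTC-133. The median enzyme had a log2 ratio of 0.14 in TPC-1, beside -0.02 for the median gene, and 0.04 in FTC-133, beside 0.05.

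A ratio of TPM + 1 of 2-fold or more was counted in each line without a test. In 8505C, 14 of 32 members were at least 2-fold higher after NR1D1 siRNA, against 11.9% of the 16499 genes measured in that line, and 0 were 2-fold lower, against 5.86%. The 14 comprised 8 of 18 synthesis enzymes, 3 of 4 SREBP genes, 3 of 5 uptake genes and 0 of 5 efflux genes. FDPS, at a log2 ratio of 1.03, was the enzyme just inside the limit. PMVK, at 1.9999-fold, and SQLE, at 0.98 on the log2 scale, lay just outside it. Without the added 1, the TPM ratio was 2.04 for PMVK, 2.07 for HSD17B7 and 3.15 for CYP51A1, the last on fewer than 20 reads in a library. The enzyme count was 5 when the libraries were scaled by a trimmed mean and 11 with a pseudocount of 0.1. The share of all genes past 2-fold was not counted under these settings. In CAL-62, 6 of 32 members were at least 2-fold higher (MSMO1, SC5D, DHCR7, STARD4, NPC1 and LIPA), against 5.3% of 16230 genes, and 0 were 2-fold lower, against 10.7%. In TPC-1, 0 of the 31 members measured passed 2-fold in either direction, against 6.28% of genes higher and 5.25% lower. In FTC-133, 0 of 31 were 2-fold higher, against 9.76%, and 1, IDI1, was 2-fold lower, against 6.91%.

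**Figure D1:**
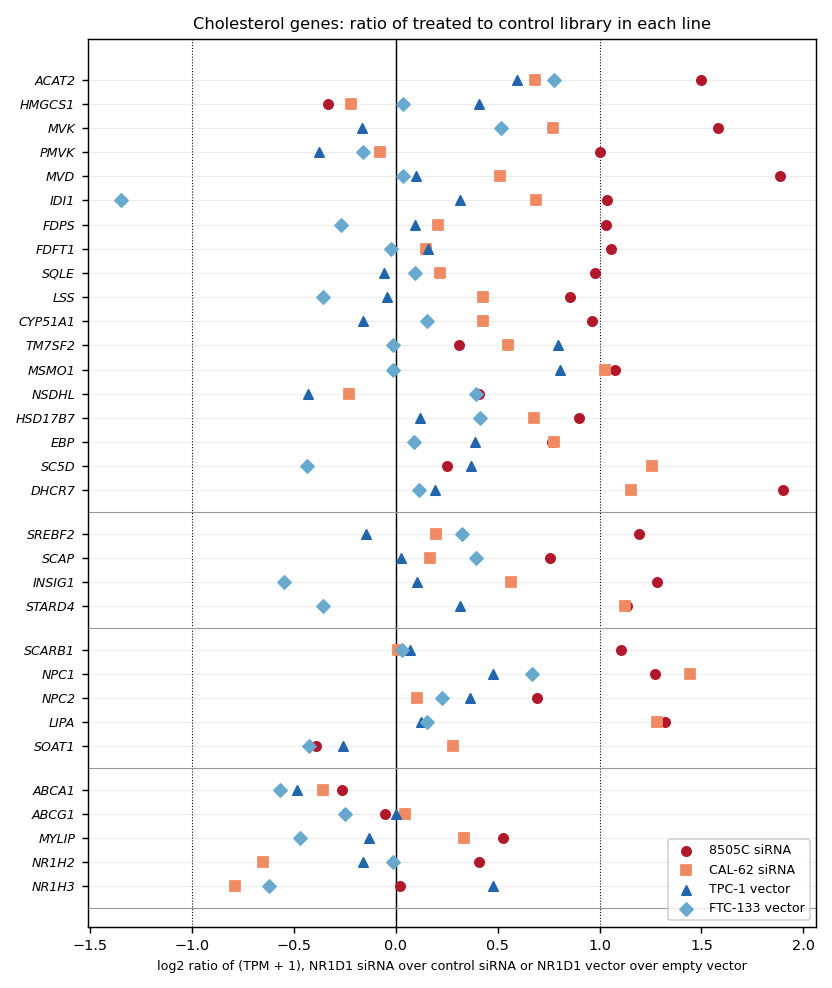
Ratio of treated to control library for each of the 32 genes, as log2 of (TPM + 1) on the horizontal axis, with 1 point per line and dotted lines at 2-fold. The red and orange siRNA points of the synthesis, SREBP and uptake genes sit mostly right of 0, with 14 genes past 2-fold in 8505C and 6 in CAL-62, while the blue vector points lie mostly nearer to 0, with IDI1 in FTC-133 at -1.35.

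In CAL-62 the mitochondrial genome took 67.8% of TPM after NR1D1 siRNA and 57.2% after control siRNA. In the other lines the treated and control shares were closer, with 28.6% after NR1D1 siRNA and 29.3% after control siRNA in 8505C, 19.6% with NR1D1 vector and 17.4% with empty vector in TPC-1, and 15.7% with NR1D1 vector and 17.4% with empty vector in FTC-133. All nuclear genes of CAL-62 together thus had a smaller share of TPM after NR1D1 siRNA. Relative to the median gene, 18 of 18 enzymes were higher in CAL-62. With scaling over the genes outside the mitochondrial genome, the CAL-62 median enzyme had a log2 ratio of 0.96, beside 0.11 for the median gene. The enzyme median was thus 0.85 above the median gene, against 0.81 on the TPM scale. With this scaling 8 enzymes passed 2-fold, against 3 on the TPM scale, and the share of all genes past 2-fold was not counted.

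Markers of another cell type also differed in 8505C. The 3 endothelial markers summed to 145 TPM after NR1D1 siRNA and 49.6 TPM after control siRNA, almost all of it CDH5, at 140 TPM after NR1D1 siRNA and 46.8 TPM after control siRNA, while KDR was under 1 TPM in both libraries. In the other lines the sum was at most 4.94 TPM. Epithelial markers summed to 1361 TPM after NR1D1 siRNA and 879 TPM after control siRNA in 8505C, and to 747 TPM after NR1D1 siRNA and 909 TPM after control siRNA in CAL-62. In CAL-62 the markers split, with values after NR1D1 siRNA and control siRNA in that order. KRT8 (94.2 and 172 TPM), KRT18 (208 and 418 TPM) and KRT19 (112 and 119 TPM) were lower. EPCAM (324 and 194 TPM) and CDH1 (9.69 and 5.68 TPM) were higher. With the NR1D1 vector the epithelial markers summed to 350 TPM in TPC-1, against 183 TPM with the empty vector. They summed to 179 TPM in FTC-133, against 64.5 TPM. Their part in the values of the cholesterol genes was not tested. The hepatocyte markers summed to at most 1.44 TPM in any library.

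Across both siRNA lines no member passed limma's moderated test after Benjamini-Hochberg adjustment over 17595 genes, and neither did any other gene (0% called in each direction, smallest adjusted p = 0.166). At an unadjusted p under 0.05, 11 of 32 members were higher and 0 lower, against 4.5% of all genes higher and 7.52% lower. The 11 were DHCR7, NPC1, LIPA, STARD4, ACAT2, MSMO1, MVK, MVD, EBP, INSIG1 and HSD17B7. With trimmed-mean scaling the count was 20, and 1270 of 17609 genes were higher at that p, beside 791 of 17595 on the TPM scale. With scaling outside the mitochondrial genome it was 23, and 1791 of 20011 genes were higher. Leaving out 8505C or CAL-62 leaves 1 siRNA pair, so only effect sizes are given. The log2 changes without 8505C and without CAL-62 were 1.15 and 1.90 for DHCR7, 0.51 and 1.88 for MVD and 1.28 and 1.32 for LIPA. With genes of a mean of at least 5 TPM, 77 of 11174 genes passed the adjusted threshold, 38 higher and 39 lower. Of the 30 members tested, 0 passed. At so small a share of all genes, this does not set the members apart from other genes.

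The early enzymes make mevalonate and turn it into isoprenoid units. ACAT2, which joins acetyl-CoA units at the entry of the pathway, was higher in all 4 lines. It was at 29.5 TPM after NR1D1 siRNA and 9.81 TPM after control siRNA in 8505C, and at 9.35 TPM after NR1D1 siRNA and 5.44 TPM after control siRNA in CAL-62. In cells with the NR1D1 vector it was at 43.5 TPM in TPC-1, against 28.4 TPM with the empty vector, and at 56.8 TPM in FTC-133, against 32.8 TPM with empty vector. Its mean log2 change was 1.09 ± 0.31 with siRNA (SE, 2 lines; limma, unadjusted p = 0.0106, adjusted p = 0.295) and 0.69 ± 0.31 with the vector (unadjusted p = 0.0638, adjusted p = 1). Exons of SOD2-OT1 on the other strand overlap 52.3% of the exon bases of ACAT2, and the strand setting of the counting was not given in the sources used here.

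HMGCS1, which makes HMG-CoA, was the 1 synthesis enzyme below control in both siRNA lines. It stood at 31.0 TPM after NR1D1 siRNA and 39.3 TPM after control siRNA in 8505C, and at 21.5 TPM after NR1D1 siRNA and 25.1 TPM after control siRNA in CAL-62. TPC-1 cells had it at 27.3 TPM with the NR1D1 vector and 20.3 TPM with the empty vector, and in FTC-133 at 142 TPM with NR1D1 vector and 139 TPM with empty vector. Relative to the median gene its CAL-62 ratio was 0.06 on the log2 scale, so that its sign in that line depended on the scaling. Its siRNA mean of -0.28 ± 0.27 did not pass (limma, adjusted p = 0.703).

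MVK, the first mevalonate kinase, was at 10.2 TPM after NR1D1 siRNA and 2.75 TPM after control siRNA in 8505C, and at 7.62 TPM after NR1D1 siRNA and 4.06 TPM after control siRNA in CAL-62. It was at 12.8 TPM with the NR1D1 vector and 14.5 TPM with the empty vector in TPC-1, and at 25.8 TPM with NR1D1 vector and 17.7 TPM with empty vector in FTC-133. MVK was thus higher in 3 of 4 lines, with its highest ratio in 8505C. MVD, which makes isopentenyl diphosphate, was at 36.6 TPM after NR1D1 siRNA and 9.18 TPM after control siRNA in 8505C. In CAL-62 MVD was at 12.3 TPM after NR1D1 siRNA and 8.29 TPM after control siRNA. The vector lines differed less in MVD, with 27.5 TPM with NR1D1 vector and 25.5 TPM with empty vector in TPC-1, and 98.3 TPM with NR1D1 vector and 95.7 TPM with empty vector in FTC-133. The siRNA means were 1.18 ± 0.34 for MVK (limma, adjusted p = 0.302) and 1.20 ± 0.37 for MVD (adjusted p = 0.325).

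PMVK, the kinase that acts between MVK and MVD, had unlike ratios in the siRNA lines. It stood at 52.8 TPM after NR1D1 siRNA and 25.9 TPM after control siRNA in 8505C, but at 4.95 TPM after NR1D1 siRNA and 5.28 TPM after control siRNA in CAL-62, on 37 and 49 estimated reads, a ratio that was above control, at 0.20 on the log2 scale, relative to the median gene. IDI1, the isomerase of isopentenyl diphosphate, stood out in FTC-133. It was at 101 TPM with the NR1D1 vector and 258 TPM with the empty vector there, a TPM ratio of 0.391 with a 95% counting interval of 0.370 to 0.412. In the TPC-1 pair it was at 50.1 TPM with the NR1D1 vector and 40.1 TPM with the empty vector. After NR1D1 siRNA it was at 55.5 TPM in 8505C, against 26.5 TPM after control siRNA, and at 41.8 TPM in CAL-62, against 25.5 TPM. Its vector mean of -0.52 ± 0.42 did not pass (limma, adjusted p = 1), and without FTC-133 it was 0.32. Counting intervals here and below cover counting error only.

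The middle enzymes join isoprenoid units into squalene and close the ring. FDPS, FDFT1, SQLE and LSS had log2 ratios of 0.86 to 1.06 in 8505C and 0.15 to 0.43 in CAL-62. In the vector lines they ranged from -0.36, for LSS in FTC-133, to 0.16, for FDFT1 in TPC-1. LSS, which makes lanosterol, was higher in both siRNA lines and lower in both vector lines. Of these 4 enzymes only FDFT1 had over 500 TPM in any library, with 590 TPM with the NR1D1 vector and 599 TPM with the empty vector in FTC-133. FDPS has 8 pseudogenes named after it, and reads they share with it could have been split.

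The late enzymes trim lanosterol to cholesterol. DHCR7, which reduces 7-dehydrocholesterol in the last step of one branch, lies at chromosome 11, bases 71428193 to 71452868 on the minus strand (GENCODE 29, GRCh38). It stood at 97.3 TPM after NR1D1 siRNA and 25.3 TPM after control siRNA in 8505C, and at 77.4 TPM after NR1D1 siRNA and 34.2 TPM after control siRNA in CAL-62. Under the NR1D1 vector it was at 85.6 TPM in TPC-1, against 74.8 TPM with the empty vector, and at 221 TPM in FTC-133, against 204 TPM with empty vector. The treated library was the higher of the pair in all 4 lines, by most in 8505C, where the TPM ratio was 3.84 (95% counting interval 3.47 to 4.26). The siRNA mean was 1.53 ± 0.29 (limma, unadjusted p = 0.00161, adjusted p = 0.246). The difference between the siRNA and vector means was 1.37 ± 0.42 (limma, unadjusted p = 0.0147, adjusted p = 0.679).

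MSMO1, the sterol C4 methyl oxidase, lies at chromosome 4, bases 165327623 to 165343160 on the plus strand. It was at 134 TPM after NR1D1 siRNA and 62.8 TPM after control siRNA in 8505C, and at 153 TPM after NR1D1 siRNA and 74.4 TPM after control siRNA in CAL-62. It stood at 170 TPM with the NR1D1 vector and 96.9 TPM with the empty vector in TPC-1, and at 435 TPM with NR1D1 vector and 439 TPM with empty vector in FTC-133. MSMO1 was thus at about the same level in both FTC-133 libraries and higher in the treated library of the other lines, with an siRNA mean of 1.05 ± 0.30 (limma, adjusted p = 0.302).

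EBP, the sterol isomerase, was at 29.7 TPM after NR1D1 siRNA and 17.0 TPM after control siRNA in 8505C, and at 34.0 TPM after NR1D1 siRNA and 19.4 TPM after control siRNA in CAL-62. In TPC-1 it was at 25.0 TPM with the NR1D1 vector and 18.9 TPM with the empty vector, and in FTC-133 at 59.1 TPM with NR1D1 vector and 55.5 TPM with empty vector. The siRNA ratios of EBP were close to each other, 0.77 and 0.78 on the log2 scale (limma mean 0.77 ± 0.26, adjusted p = 0.352). HSD17B7, a sterol ketoreductase, was at 8.91 TPM after NR1D1 siRNA and 4.31 TPM after control siRNA in 8505C, and at 6.01 TPM after NR1D1 siRNA and 3.38 TPM after control siRNA in CAL-62. TPC-1 cells had it at 22.4 TPM with the NR1D1 vector and 20.6 TPM with the empty vector, and in FTC-133 at 23.4 TPM with NR1D1 vector and 17.4 TPM with empty vector. HSD17B7 has 2 pseudogenes named after it that could share its reads, and its siRNA mean was 0.79 ± 0.28 (limma, adjusted p = 0.358).

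TM7SF2, a sterol C14 reductase, was named for its vector values. It was at 8.89 TPM with the NR1D1 vector and 4.70 TPM with the empty vector in TPC-1, but at 0.998 TPM with NR1D1 vector and 1.02 TPM with empty vector in FTC-133, on 14 and 15 reads. After NR1D1 siRNA it was at 17.5 TPM in 8505C, against 13.9 TPM after control siRNA, and at 12.6 TPM in CAL-62, against 8.29 TPM. SC5D, the lathosterol desaturase, was the enzyme with the highest ratio in CAL-62, at 30.6 TPM after NR1D1 siRNA and 12.2 TPM after control siRNA, while in 8505C it was at 19.0 TPM after NR1D1 siRNA and 15.8 TPM after control siRNA. NSDHL, a sterol C4 dehydrogenase, had log2 ratios of 0.41 in 8505C and 0.39 in FTC-133 but -0.43 in TPC-1 and -0.23 in CAL-62, where it was 0.05 relative to the median gene. CYP51A1, the lanosterol demethylase, was at 2.48 TPM after NR1D1 siRNA and 0.788 TPM after control siRNA in 8505C, on 46 and 12 reads. Exons of other genes overlap 83.2% of its exon bases, most of them on its own strand, so its values are uncertain.

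**Figure D2:**
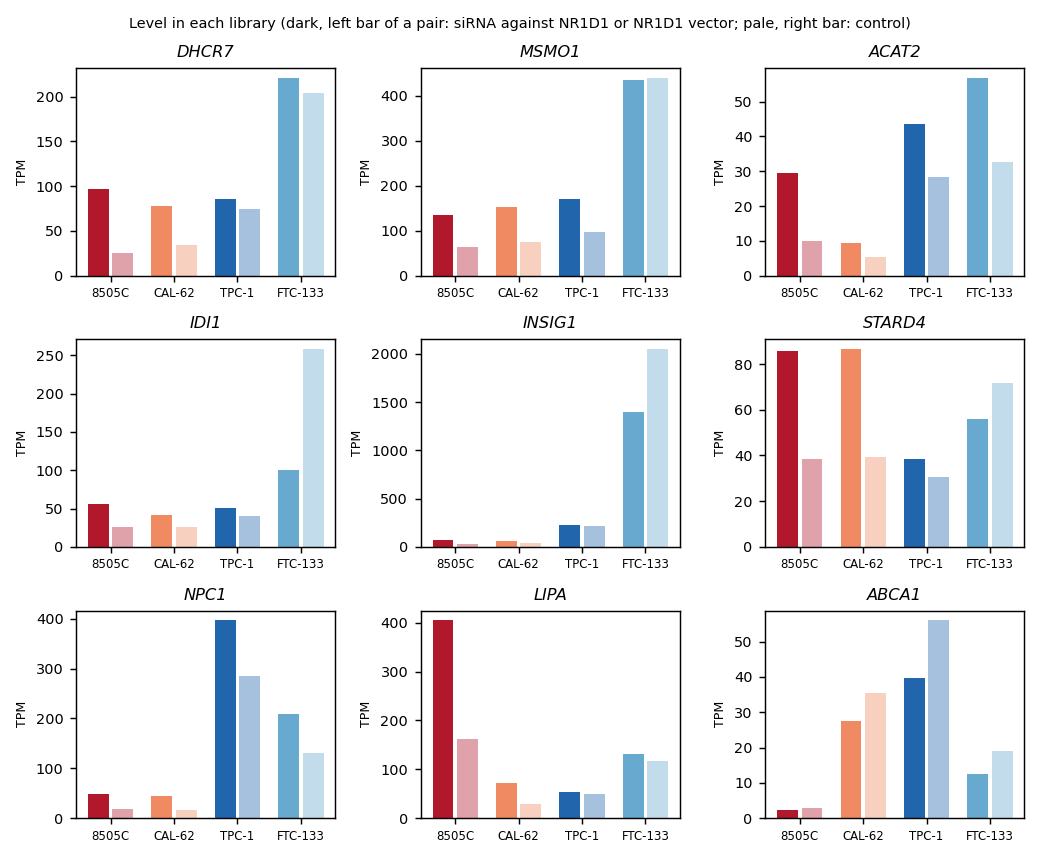
Level in TPM of 9 members in each of the 8 libraries, with the vertical axis from 0 and a scale for each gene. Dark bars are the libraries with NR1D1 siRNA or NR1D1 vector and pale bars to their right the controls, 1 library each. DHCR7, MSMO1, STARD4, NPC1 and LIPA are over 2-fold higher in the dark bars of both siRNA lines. ABCA1 is lower in the dark bar of every pair.

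The genes of the SREBP group, STARD4 among them, were above control in both siRNA lines, 4 of 4 in each, against 23% of all genes above control in both. SREBF2, which encodes SREBP-2, was at 95.6 TPM after NR1D1 siRNA and 41.3 TPM after control siRNA in 8505C, and at 55.6 TPM after NR1D1 siRNA and 48.5 TPM after control siRNA in CAL-62. Under the NR1D1 vector it was at 194 TPM in TPC-1, against 215 TPM with the empty vector, and at 216 TPM in FTC-133, against 172 TPM with empty vector. SREBF2 was 2-fold higher in 8505C only, and its siRNA mean was 0.69 ± 0.34 (limma, adjusted p = 0.464). SCAP was at 29.1 TPM after NR1D1 siRNA and 16.8 TPM after control siRNA in 8505C, and at 13.6 TPM after NR1D1 siRNA and 12.0 TPM after control siRNA in CAL-62. It stood at 38.8 TPM with the NR1D1 vector and 38.1 TPM with the empty vector in TPC-1, and at 42.1 TPM with NR1D1 vector and 31.8 TPM with empty vector in FTC-133.

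INSIG1, which retains SCAP when sterol is plentiful and is itself a target of SREBP-2, was at 69.5 TPM after NR1D1 siRNA and 28.0 TPM after control siRNA in 8505C, and at 59.2 TPM after NR1D1 siRNA and 39.7 TPM after control siRNA in CAL-62. In FTC-133 it stood far higher, at 1399 TPM with the NR1D1 vector and 2048 TPM with the empty vector, and in TPC-1 it was at 229 TPM with NR1D1 vector and 213 TPM with empty vector. INSIG1 was therefore higher in the treated libraries of 3 lines and lower in FTC-133. STARD4, a cytosolic sterol carrier, had almost the same values in both siRNA lines. It was at 85.9 TPM after NR1D1 siRNA and 38.6 TPM after control siRNA in 8505C, and at 86.6 TPM after NR1D1 siRNA and 39.2 TPM after control siRNA in CAL-62. The vector lines had STARD4 at 38.6 TPM with the NR1D1 vector and 30.8 TPM with the empty vector in TPC-1, and at 55.8 TPM with NR1D1 vector and 71.6 TPM with empty vector in FTC-133. The difference between siRNA and vector means was 1.15 for each of these genes, ± 0.46 for INSIG1 (limma, unadjusted p = 0.0427, adjusted p = 0.735) and ± 0.41 for STARD4 (unadjusted p = 0.0275, adjusted p = 0.714).

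Among the uptake genes, LIPA and NPC1, both of the lysosome, had the highest siRNA changes. LIPA, the lysosomal acid lipase that frees cholesterol from its esters, lies at chromosome 10, bases 89213569 to 89414557 on the minus strand. It stood at 405 TPM after NR1D1 siRNA and 161 TPM after control siRNA in 8505C, and at 71.8 TPM after NR1D1 siRNA and 28.9 TPM after control siRNA in CAL-62. In cells with the NR1D1 vector it was at 54.0 TPM in TPC-1, against 49.5 TPM with the empty vector, and at 131 TPM in FTC-133, against 117 TPM with empty vector. The siRNA ratios of LIPA were close to each other, 1.32 and 1.28 on the log2 scale, and the vector ratios were 0.12 and 0.16. The siRNA mean was 1.30 ± 0.26 (limma, unadjusted p = 0.00177, adjusted p = 0.246), and it differed from the vector mean by 1.16 ± 0.36 (unadjusted p = 0.0162, adjusted p = 0.679).

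NPC1, the membrane protein that carries cholesterol out of the lysosome, was at 47.5 TPM after NR1D1 siRNA and 19.1 TPM after control siRNA in 8505C, and at 43.9 TPM after NR1D1 siRNA and 15.5 TPM after control siRNA in CAL-62. It was also higher with the NR1D1 vector, at 397 TPM against 285 TPM with the empty vector in TPC-1 and at 210 against 132 TPM in FTC-133. All 4 pairs thus had the higher NPC1 level in the treated library, with an siRNA mean of 1.36 ± 0.26 (limma, unadjusted p = 0.00156, adjusted p = 0.246) and a vector mean of 0.57 ± 0.26 (unadjusted p = 0.0663, adjusted p = 1). NPC2, the soluble partner that hands cholesterol to NPC1, was at 126 TPM after NR1D1 siRNA and 77.4 TPM after control siRNA in 8505C, and at 176 TPM after NR1D1 siRNA and 163 TPM after control siRNA in CAL-62. It was at 46.0 TPM with the NR1D1 vector and 35.5 TPM with the empty vector in TPC-1, and at 283 TPM with NR1D1 vector and 241 TPM with empty vector in FTC-133.

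SCARB1, the receptor that takes cholesteryl ester from HDL, was 2-fold higher in 8505C and close to control in the other lines. It stood at 62.0 TPM after NR1D1 siRNA and 28.2 TPM after control siRNA in 8505C, and at 15.5 TPM after NR1D1 siRNA and 15.4 TPM after control siRNA in CAL-62. In the TPC-1 pair it was at 10.5 TPM with the NR1D1 vector and 9.96 TPM with the empty vector, and in FTC-133 at 21.2 TPM with NR1D1 vector and 20.8 TPM with empty vector. SOAT1, which esterifies cholesterol for storage, was below control in 3 lines. It was at 24.7 TPM after NR1D1 siRNA and 32.7 TPM after control siRNA in 8505C, but at 20.8 TPM after NR1D1 siRNA and 16.9 TPM after control siRNA in CAL-62. Under the NR1D1 vector it was at 71.8 TPM in TPC-1, against 86.0 TPM with the empty vector, and at 24.4 TPM in FTC-133, against 33.1 TPM with empty vector.

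The efflux and LXR genes had mixed directions, and none of those measured (5 in each siRNA line, 4 in each vector line) had a 2-fold ratio of TPM + 1. With a pseudocount of 0.1, NR1H3 was 2-fold lower in CAL-62. Their median log2 ratio was 0.02 in 8505C, -0.36 in CAL-62 (0.04 with scaling outside the mitochondrial genome), -0.15 in TPC-1 and -0.52 in FTC-133. Their summed levels were 67.5 TPM after NR1D1 siRNA and 52.0 TPM after control siRNA in 8505C, and 68.0 TPM after NR1D1 siRNA and 78.1 TPM after control siRNA in CAL-62. The sums were 128 TPM with NR1D1 vector and 153 TPM with empty vector in TPC-1, and 73.1 TPM with NR1D1 vector and 88.0 TPM with empty vector in FTC-133. Over all 10 uptake, storage, efflux and LXR members (9 measured in each vector line) the median log2 ratio was below that of the synthesis enzymes in each line. It was 0.47 in 8505C, 0.08 in CAL-62, 0.07 in TPC-1 and -0.01 in FTC-133. The 5 uptake, lysosomal and storage members alone had medians of 1.11 in 8505C, 0.28 in CAL-62, 0.12 in TPC-1 and 0.16 in FTC-133. These were above the enzyme medians in 8505C (0.99) and FTC-133 (0.04) and below them in CAL-62 (0.53) and TPC-1 (0.14).

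ABCA1, the exporter that loads cholesterol onto apolipoproteins, lies at chromosome 9, bases 104781002 to 104928237 on the minus strand. It stood at 2.31 TPM after NR1D1 siRNA and 2.98 TPM after control siRNA in 8505C, and at 27.4 TPM after NR1D1 siRNA and 35.4 TPM after control siRNA in CAL-62. Under the NR1D1 vector it was at 39.7 TPM in TPC-1, against 56.0 TPM with the empty vector, and at 12.6 TPM in FTC-133, against 19.1 TPM with empty vector. ABCA1 was the only member lower in the treated library of every pair, but its CAL-62 ratio was 0.04 on the log2 scale with scaling outside the mitochondrial genome. Its mean changes were -0.31 ± 0.26 with siRNA (limma, adjusted p = 0.657) and -0.53 ± 0.26 with the vector (unadjusted p = 0.0897, adjusted p = 1).

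ABCG1, which exports cholesterol to HDL, was near silent in the vector lines. It was at 3.14 TPM after NR1D1 siRNA and 3.29 TPM after control siRNA in 8505C, and at 9.30 TPM after NR1D1 siRNA and 8.98 TPM after control siRNA in CAL-62. In TPC-1 it was at 0.167 TPM in both libraries, on 6 reads each, and in FTC-133 it was listed at 0 with the NR1D1 vector and at 0.189 TPM, on 5 reads, with the empty vector. MYLIP, the ligase that marks lipoprotein receptors for breakdown, was higher in both siRNA lines and lower in both vector lines. It stood at 26.4 TPM after NR1D1 siRNA and 18.0 TPM after control siRNA in 8505C, and at 21.3 TPM after NR1D1 siRNA and 16.7 TPM after control siRNA in CAL-62. It was at 42.6 TPM with the NR1D1 vector and 46.8 TPM with the empty vector in TPC-1, and at 8.46 TPM with NR1D1 vector and 12.1 TPM with empty vector in FTC-133. The difference of 0.73 ± 0.38 between its siRNA and vector means did not pass (limma, unadjusted p = 0.101, adjusted p = 0.761).

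The LXR receptors themselves gave mixed values. NR1H2, LXR beta, was at 31.3 TPM after NR1D1 siRNA and 23.4 TPM after control siRNA in 8505C, but at 8.20 TPM after NR1D1 siRNA and 13.4 TPM after control siRNA in CAL-62. In cells with the NR1D1 vector it was at 42.5 TPM in TPC-1, against 47.6 TPM with the empty vector, and at 45.3 TPM in FTC-133, against 45.7 TPM with empty vector. NR1H3, LXR alpha, was the lower of these receptors in every library. It stood at 4.37 TPM after NR1D1 siRNA and 4.29 TPM after control siRNA in 8505C, and at 1.70 TPM after NR1D1 siRNA and 3.65 TPM after control siRNA in CAL-62, on 45 and 119 reads. It was at 3.12 TPM with the NR1D1 vector and 1.96 TPM with the empty vector in TPC-1, and at 6.70 TPM with NR1D1 vector and 10.8 TPM with empty vector in FTC-133.

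**Figure D3:**
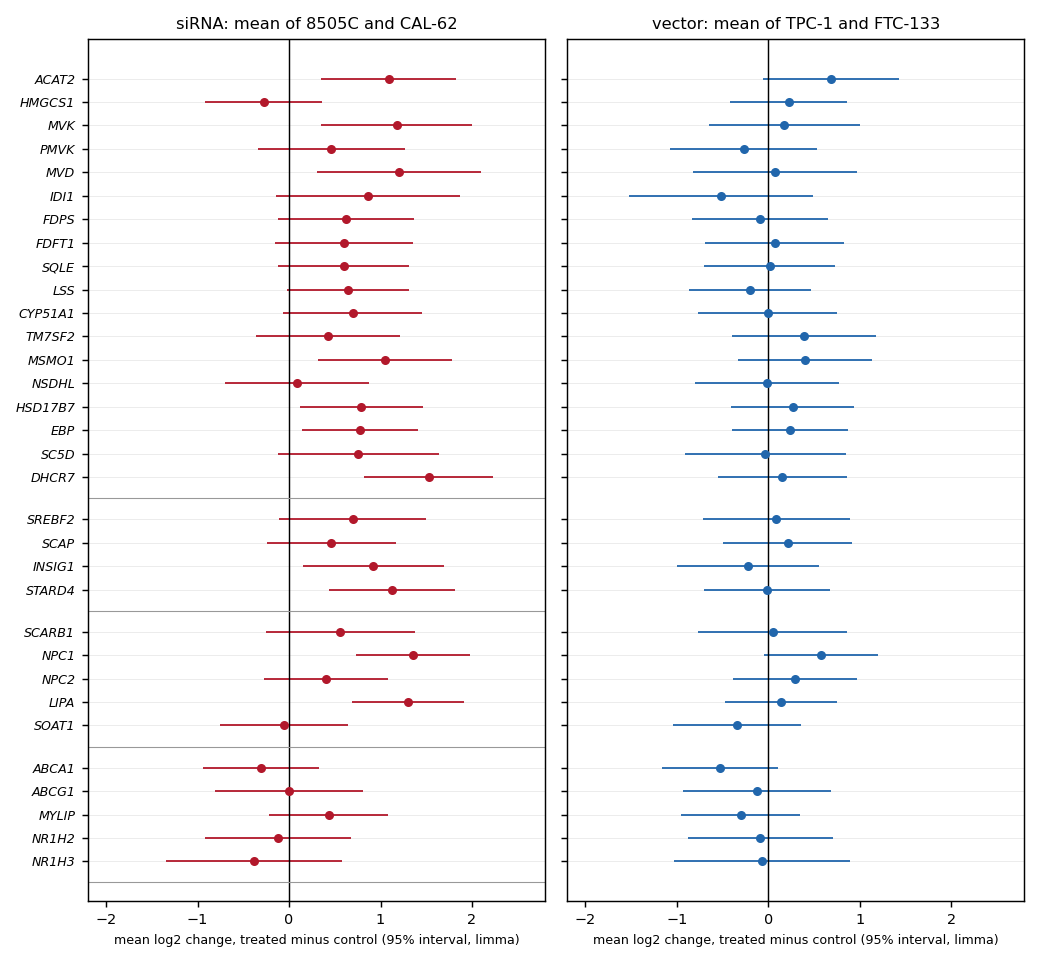
Mean log2 change of the 32 genes, treated minus control, on the horizontal axes, for the siRNA lines at left and the vector lines at right. Points are means of 2 lines each, with limma's 95% intervals from a spread pooled over the 4 lines. The siRNA intervals of 11 genes, DHCR7, NPC1 and LIPA among them, lie wholly above 0, and every vector interval includes 0; no adjusted p passed the threshold.

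In the vector lines 0 of 32 members had an unadjusted p under 0.05 (limma), against 2.84% of genes higher and 1.62% lower, and 0 genes passed after adjustment. The siRNA and vector changes differed at an unadjusted p under 0.05 for 4 of 32 members, DHCR7, LIPA, STARD4 and INSIG1, each with the higher change under siRNA, against 2.57% of genes with the higher change under siRNA and 4.1% with the lower. None passed adjustment (limma, smallest adjusted p over all genes 0.483). The count was 11 with trimmed-mean scaling. Of all genes, 727 of 17609 then had the higher change under siRNA at that p, beside 453 of 17595 on the TPM scale. With scaling outside the mitochondrial genome it was 13, and 952 of 20011 genes had the higher change. Leaving out a line leaves 1 pair for its agent, so only effect sizes are given. DHCR7, LIPA, STARD4 and INSIG1 kept the higher change under siRNA whichever line was left out. Their log2 difference was lowest at 0.79, for INSIG1 without 8505C, and highest at 1.75, for DHCR7 without CAL-62. Each agent was used in its own lines, so agent and lines cannot be told apart.

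By sign alone, 24 of 32 members were higher in both siRNA lines, against 23% of all genes. In all 4 lines 10 members were higher in the treated library, against 6.78% of all genes: ACAT2, MVD, HSD17B7, EBP, DHCR7, SCAP, SCARB1, NPC1, NPC2 and LIPA. With trimmed-mean scaling the FTC-133 log2 ratio was -0.02 for MVD and -0.03 for SCARB1. ABCA1 alone was lower in all 4, against 8.75%. Of the members, 2 were higher in both siRNA lines and lower in both vector lines, LSS and MYLIP, against 3.83% of all genes, and 1, HMGCS1, had the reverse signs, against 6.26%, with a sign in CAL-62 that depended on the scaling.

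Levels in the control libraries differed between the lines. These are given as a description, since the tables were normalized separately, the controls were siRNA or empty vector, and each line had 1 library. The mitochondrial genome took 57.2% of control TPM in CAL-62, 29.3% in 8505C and 17.4% in each vector line. Nuclear genes of CAL-62 are thus lower on the TPM scale. The order of the lines and the spans that follow depend on this scale and were not recomputed outside the mitochondrial genome. Of the 18 synthesis enzymes, 14 were highest in FTC-133, where 23.3% of all genes were highest, 3 in TPC-1 (PMVK, NSDHL and HSD17B7) and 1 in 8505C (TM7SF2). The lowest level was in CAL-62 for 8 enzymes, where 39.9% of all genes were lowest, and in 8505C for 7, against 19.6% of all genes. The median enzyme was at 84.0 TPM in FTC-133, 33.7 TPM in TPC-1, 20.8 TPM in 8505C and 15.8 TPM in CAL-62, while the median gene was at 8.34 TPM in FTC-133, 10.6 TPM in TPC-1, 8.68 TPM in 8505C and 7.002 TPM in CAL-62. For most of these 14 TPC-1 came second, the exceptions being HMGCS1, EBP and SC5D, and TM7SF2 had the reverse order, with FTC-133 lowest.

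Some members spanned a wide range between control libraries. INSIG1 differed 73.2-fold between FTC-133 and 8505C, and CYP51A1 38.8-fold between the same lines. ABCG1 differed 53.7-fold between CAL-62 and TPC-1, and PMVK 26.8-fold between TPC-1 and CAL-62. The low ends of the last 3 spans rest on few estimated reads: 12 for CYP51A1, 6 for ABCG1 and 49 for PMVK. The values of CYP51A1 are also uncertain through its exon overlap. STARD4 spanned 2.33-fold and SCARB1 2.84-fold. Outside synthesis, SREBF2, SCAP, NPC1, SOAT1, ABCA1, MYLIP and NR1H2 were highest in TPC-1, where 37.9% of all genes were highest, INSIG1, STARD4, NPC2 and NR1H3 in FTC-133, SCARB1 and LIPA in 8505C, and ABCG1 in CAL-62. ABCA1 spanned 18.8-fold and NPC1 18.4-fold. Control NR1D1 was at 105 TPM in FTC-133, 190 TPM in TPC-1, 18.2 TPM in 8505C and 22.0 TPM in CAL-62, in 4 lines that differ in much else.

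**Figure D4:**
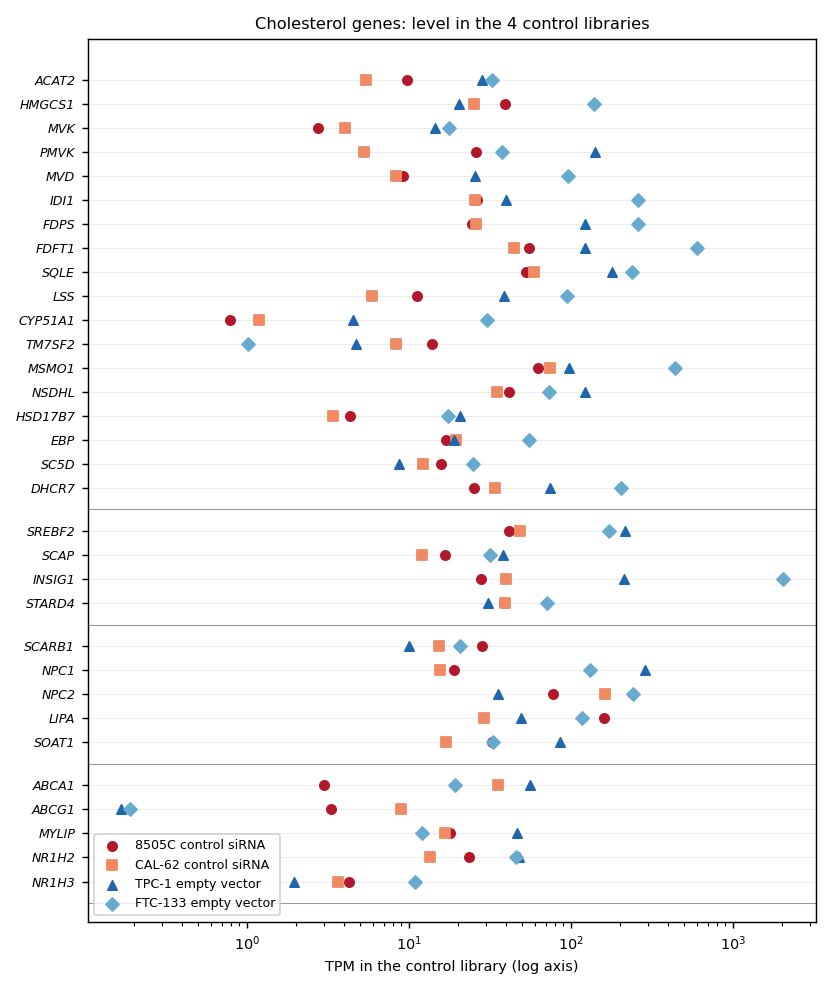
Level of each of the 32 genes in the 4 control libraries, in TPM on a log axis, with 1 point per line. The FTC-133 points of the synthesis enzymes lie furthest right for 14 of 18 genes, the 8505C and CAL-62 points lie mostly at left, and INSIG1 has its FTC-133 point at 2048 TPM.

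Other genes of the same pathways, 58 in all of which 53 passed the filter, were counted beside the members. In the siRNA lines 5 of the 53 were higher and 5 lower at an unadjusted p under 0.05 (limma). Among all genes 4.5% were higher and 7.52% lower. Of the 53, 0 passed adjustment, and their median change was 0.02. The isoprenoid branches that leave the pathway had a median of -0.20 over 13 genes. NUS1, a subunit of the dolichol synthase, was at 59.1 TPM after NR1D1 siRNA and 96.2 TPM after control siRNA in 8505C, and at 20.4 TPM after NR1D1 siRNA and 42.1 TPM after control siRNA in CAL-62. PDSS2, which builds the tail of coenzyme Q, had a log2 ratio of -0.41 in 8505C and of -1.09 in CAL-62.

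Among the remaining sterol enzymes, LBR, a C14 reductase of the nuclear envelope, had log2 ratios of 0.84 in 8505C, 1.03 in CAL-62 and 0.60 in TPC-1, but -0.39 in FTC-133.

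Around the SREBP sensor, SREBF1, the paralog of SREBF2 that favours fatty acid genes, had an siRNA mean of 1.18 ± 0.31 (limma, adjusted p = 0.286). ERLIN1, part of the complex that hands sterol-regulated proteins to breakdown, was lower in both siRNA lines. It stood at 28.7 TPM after NR1D1 siRNA and 97.1 TPM after control siRNA in 8505C, and at 16.0 TPM after NR1D1 siRNA and 81.6 TPM after control siRNA in CAL-62. TPC-1 cells had it at 161 TPM with the NR1D1 vector and 210 TPM with the empty vector, and in FTC-133 at 115 TPM with NR1D1 vector and 106 TPM with empty vector. Its siRNA mean of -2.003 ± 0.29 had an unadjusted p of 0.000357 and an adjusted p of 0.223 (limma). Among transport genes, LRP1, an endocytic receptor, had 1.20 ± 0.31 and OSBP, a carrier of sterol between membranes, -1.12 ± 0.30. Of the oxysterol and LXR genes, ABCA7, a relative of ABCA1, had 1.32 ± 0.29 with siRNA and 0.81 ± 0.29 with the vector, and SMPDL3A, an LXR target in human macrophages, had 0.83 ± 0.35 with siRNA. None of these passed adjustment.

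Fatty acid synthesis genes, which SREBP-1 drives, were set beside the cholesterol genes. Of 14, 13 passed the filter, and in the siRNA lines 6 were higher and 1 lower at an unadjusted p under 0.05 (limma, 0 after adjustment). The shares of all genes were 4.5% higher and 7.52% lower. Their median siRNA change of 0.72 was close to the 0.73 of the cholesterol synthesis enzymes, beside -0.07 for all genes, and in the vector lines the fatty acid median was 0.0036 and that of the enzymes 0.07. ACLY, which makes the acetyl-CoA that feeds both pathways, was at 242 TPM after NR1D1 siRNA and 34.5 TPM after control siRNA in 8505C, and at 94.9 TPM after NR1D1 siRNA and 36.9 TPM after control siRNA in CAL-62. FADS2, a desaturase of long-chain fatty acids, had an siRNA mean of 1.46 ± 0.29. No test set these lists against each other.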

How the data were processed

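RNA-seq of 8 libraries gave 4 tables of 58884 genes, with 1 library per group. RNA was extracted with Trizol, per the labels' protocols. The submitters' processing notes name FastQC, MultiQC, Trimmomatic 0.38 (a trimmer), featureCounts 2.0.0 (a read counter) and the build GRCh38. No source used here names an aligner, annotation release or strand setting. The 8505C and CAL-62 tables hold TPM as deposited by the authors, with columns that sum to 1000000. The TPC-1 and FTC-133 tables carry the name TPM as well, but the values the authors deposited there were read as FPKM, since columns summed to 253330 to 261469, and value times GENCODE 29 exon length summed to 1.001 to 1.005 in units of the FPKM total. They were rescaled to 1000000, so that all levels are TPM. Tables were normalized separately, and between-line levels are a description.

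Symbols were found for 58472 identifiers and positions for 58611. Reads were estimated from value and exon length, with each library scaled so that low values came out whole; 72.2% to 74.6% of values were within 0.02 of a whole read, too few for a count model, so that they serve only for depth and the 95% counting intervals.

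The 17595 genes with a mean of at least 1 TPM were tested on the log2(TPM + 1) scale with limma 3.58.1 (R 4.3.3), with terms for line, siRNA and vector, 2 residual degrees of freedom, a prior spread that follows expression, and Benjamini-Hochberg adjustment over all genes at 0.05. A fold change on this scale understates the change of low genes. The libraries of a line were paired by the line alone. Within a line, 2-fold ratios were counted over genes with a mean of at least 1 TPM in its pair. The methods were checked on simulated data. Alternatives were a pseudocount of 0.1, no filter, a minimum of 5 TPM, trimmed-mean scaling, scaling outside the mitochondrial genome, no trend, and each line left out. Promoter windows came from RefSeq (GRCh38.p14).

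The members and lists were chosen with earlier results of these data known. Full values are given for the 8 enzymes with the largest siRNA change, the 4 with the largest vector change and all other members, and from each list of other pathway genes the 2 with the largest change are named, except 1 that is not reported here. HMGCS1, SC5D, NSDHL, PMVK, CYP51A1, FDPS, FDFT1, SQLE and LSS were described beyond that rule, after their values were seen.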

Additional observations from a re-analysis of the deposited data

Results flagged for a closer look

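In some members the lines given the same agent had ratios on opposite sides of 1, and the 4 in which they differed by 1 or more on the log2 scale are given here. Each value is the difference of log2 ratios between 1 pair of libraries per line, and none of these differences was tested. PMVK had a log2 ratio 1.08 higher in 8505C than in CAL-62, where it rested on 37 and 49 estimated reads after NR1D1 and control siRNA. Relative to the median gene PMVK was above control in both siRNA lines, at 0.95 on the log2 scale in 8505C and 0.20 in CAL-62. NR1H2 was 1.06 higher in 8505C than in CAL-62. IDI1 was 1.66 higher in TPC-1 than in FTC-133. NR1H3 was 1.10 higher in TPC-1 than in FTC-133.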

How the results depend on the processing

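With trimmed-mean scaling, 5 synthesis enzymes were 2-fold higher in 8505C, against 8 on the TPM scale, and 5 in CAL-62, against 3. The CAL-62 median log2 ratio of the synthesis enzymes was then 0.82, against 0.53, and that of the uptake, storage, efflux and LXR members 0.38, against 0.08. With scaling outside the mitochondrial genome, 8 enzymes were 2-fold higher in CAL-62, with medians of 0.96 for the enzymes and 0.48 for the other members. These scalings raise the CAL-62 ratios of nuclear genes by construction. The median gene of CAL-62 was at -0.28 on the TPM scale, 0.002 with the trimmed mean and 0.11 outside the mitochondrial genome. In that order, the enzyme median lay above the median gene by 0.81, 0.82 and 0.85. That of the other members lay above it by 0.35, 0.38 and 0.37. The share of all genes past 2-fold was not counted under these scalings. The vector change of IDI1 ranged from -1.35 without TPC-1 to 0.32 without FTC-133, where its sign reversed. The siRNA changes of DHCR7, NPC1, LIPA, STARD4, ACAT2, MSMO1, MVK, MVD, EBP, INSIG1, HSD17B7 and ABCA1 kept their direction under every alternative run and none passed the adjusted threshold, the lowest adjusted p being 0.0615 for DHCR7 with at least 5 TPM (limma). Leaving out a line leaves 1 pair for that agent, whose spread is then taken from the other lines. The model is paired by line through its term for line, and with 1 library per group no replicate numbers gave a further block. Depth limits ABCG1 in the vector lines, TM7SF2 in FTC-133 and CYP51A1 in 8505C, each with a library under 20 reads.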
